A study of Mus musculus with 39 samples.

Results

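Monocytes sorted from the lungs of old mice were compared with those of young mice in animals that had received saline and no bleomycin. The members are the 10 naive monocyte libraries that the labels give as saline, 5 from young and 5 from old mice, of 39 libraries in the series. The 2 groups differ in age and share C57BL/6J mice, lung monocytes, and saline, the vehicle of ISRIB. Anything else that differed between the young and old mice, such as their source or batch, cannot be told apart from age. Per the sample labels the young mice were 8 to 12 weeks old and the old mice over 18 months. The ages in the series text differ, at 3 to 5 months for young and 18 to 24 months for old mice. The other libraries come from naive monocytes of young and old mice given ISRIB, a compound that keeps translation initiation running when the integrated stress response is on, and from Siglec F-low monocyte-derived macrophages of mice given bleomycin, which injures the lung. The series text places ISRIB or vehicle from day 7 and collection on day 21 after bleomycin and names no timing for naive mice. Nothing in the labels says whether libraries of a group came from separate mice, so the p-values below measure only the spread between these samples.

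Monocytes are blood-borne phagocytes that leave the bone marrow, patrol vessels and enter tissue, where they can become macrophages or present antigen. Classical monocytes carry Ly6C and the chemokine receptor Ccr2, and nonclassical monocytes depend on the nuclear receptor Nr4a1 and carry Cx3cr1, Spn, Ace and Treml4. Monocytes also hold low levels of the major histocompatibility complex (MHC) class II machinery, which loads peptides for CD4 T cells under control of the transactivator Ciita.

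The 10 libraries held 4595331 to 11398384 counts, with the lowest total in young saline replicate 4. That library had 12324 genes with at least 1 count against 14956 to 16241 in the others. On the first principal component, 37.6% of the variance, it scored 68.2 while the others lay between -14.1 and -2.02, so results are given with and without it. Leukocyte and myeloid transcripts were present throughout: Ptprc was at 2048 to 3336 CPM (counts scaled to a common library size) in young and 2501 to 3234 CPM in old libraries, and Csf1r was at 1640 to 2382 CPM and 1792 to 2230 CPM. The eosinophil and alveolar macrophage gene Siglecf was at most 1.49 CPM in any of them. CPM here and below are scaled by the trimmed mean of M values (TMM) unless another scale is named.

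Between old and young saline monocytes 3 genes passed the test, and all 3 were higher in old. They were Ccl5, a chemokine that draws T cells and monocytes, Bmpr1a, a type I receptor for bone morphogenetic proteins, and Gm7609, annotated as a transcribed unprocessed pseudogene. In edgeR's quasi-likelihood test on 12170 genes, 0.0247% passed an adjusted p of 0.05, and the adjusted p was 0.0140 for each of the 3. Without adjustment, 614 genes (5.05%) were higher in old and 458 (3.76%) lower at p under 0.05. DESeq2 called 46 genes and limma voom 1. When GC content and gene length entered as offsets, edgeR called 6 higher and 1 lower. It called 0 genes when only these 10 libraries were fitted, when counts were thinned to the smallest library total and under a stricter filter on low counts. The plot of fold change against p shows the 3 genes at the upper right.

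**Figure D1:**
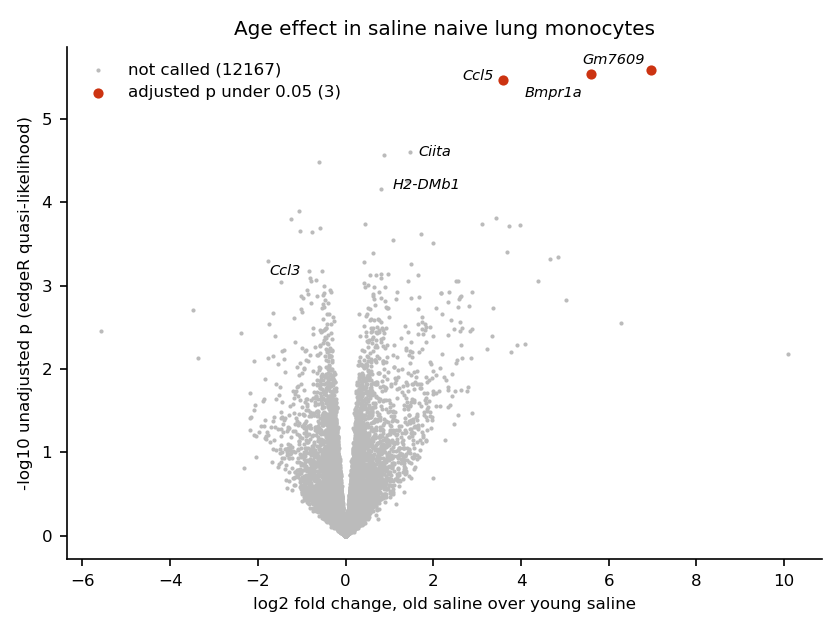
Each point is 1 of 12170 genes, with the log2 fold change of old over young saline monocytes on the horizontal axis and -log10 of the unadjusted p on the vertical axis. Red points are the 3 genes with an adjusted p under 0.05, all on the side of higher levels in old.

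Ccl5 (ENSMUSG00000035042, chromosome 11, 83525778 to 83530518 in GRCm38, minus strand) was at 1.16, 2.34, 2.07, 2.83 and 1.24 CPM in young replicates 1 to 5. It was at 32, 6.97, 12.1, 15.8 and 46.9 CPM in old replicates 1 to 5. The groups did not overlap, and old replicates 1 and 5 were the highest. The log2 fold change was 3.59 ± 0.59 (SE, n = 5 and 5, edgeR, adjusted p = 0.0140).

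Markers of T and NK cells, which are known to express Ccl5, were also highest in those 2 old libraries. The list does not hold Ccl5 itself. The summed level of the 28 markers was 290, 83.7, 67.8, 88.7 and 297 CPM of the library total in old replicates 1 to 5. In young it was 31.6, 74.1, 81.4, 92.9 and 29.5 CPM. Cd3e, a subunit of the T cell receptor complex, was at 14.8 and 16 CPM in old replicates 1 and 5, but also at 16.5 CPM in young replicate 4. Ccl5 in that young library was 2.83 CPM. It had a count for 15 of the 28 markers, against 21 to 26 in the other young libraries, so Cd3e alone does not give its T cell level. Other T and NK cell genes did not share the high young value of Cd3e. Cd3d reached 2.226 CPM in young and 13.04 CPM in old libraries. Nkg7 reached 3.264 and 12.48 CPM and Gzma 1.892 and 3.829 CPM, with overlap between the ages for each gene. In old replicates 2, 3 and 4 the marker sum lay within the young range, the top of which was young replicate 4. Ccl5 in these 3 old libraries was 6.97 to 15.8 CPM and above every young library. The sum does not measure the share of T and NK cells. Without old replicates 1 and 5 the tested markers still had a median log2 fold change of 0.67. Without old replicates 1 and 5, an alternative added after seeing the data, Ccl5 had a log2 fold change of 2.63 and an adjusted p of 0.104 (edgeR). In bulk libraries, fewer cells of a type and less RNA per cell cannot be told apart, and the part of T or NK cells in the Ccl5 result was not tested beyond these values.

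Bmpr1a (ENSMUSG00000021796, chromosome 14, 34410734 to 34503341, minus strand) had 3 counts in young replicate 1 and 0 counts in the other 4 young libraries. In old replicates 1 to 5 it had 24, 17, 75, 47 and 29 counts, so all old libraries lay above all young ones. Per count sequenced this is a ratio of 56.5, with an exact 95% interval of 19.1 to 276.6 that covers counting error only. Its old mean was 4.24 ± 2.68 CPM (SD, n = 5), under the minimum of 5 CPM in the rule for naming genes, and it was named after its values were seen.

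Gm7609 (ENSMUSG00000079457, chromosome 1, 85199613 to 85213786, plus strand) had 0 counts in all 5 young libraries. The 5 old libraries had 17, 11, 14, 33 and 10 counts. Against a floor of 3 counts over the young group it was at least 25-fold higher in old. It too falls below the CPM minimum and was named after its values were seen.

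The difference of Gm7609 and Bmpr1a between young and old mice could be followed in the other libraries. Gm7609 had 1 count over all 19 young libraries and 145 counts over the 20 old ones, with a count in 15 of them. In ISRIB-treated monocytes it had 0 counts in young and 42 in old, and in saline macrophages 0 and 9. Bmpr1a was at 0.247 ± 0.300 CPM of the library total (SD, n = 5) in young ISRIB monocytes and 4.52 ± 2.32 CPM in old ones. In saline macrophages it was at 1.23 ± 0.942 CPM (SD, n = 5) in young and 9.06 ± 2.18 CPM in old. In the fit of all 39 libraries Bmpr1a was called higher in old saline macrophages too (log2 fold change 2.87, edgeR adjusted p = 0.00761). That comparison called 0.442% of 13587 genes, 0.368% higher and 0.0736% lower. Ccl5 was at 0.996 ± 1.06 CPM in young and 4.68 ± 2.29 CPM (SD, n = 5) in old saline macrophages, with an edgeR adjusted p of 0.101.

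**Figure D2:**
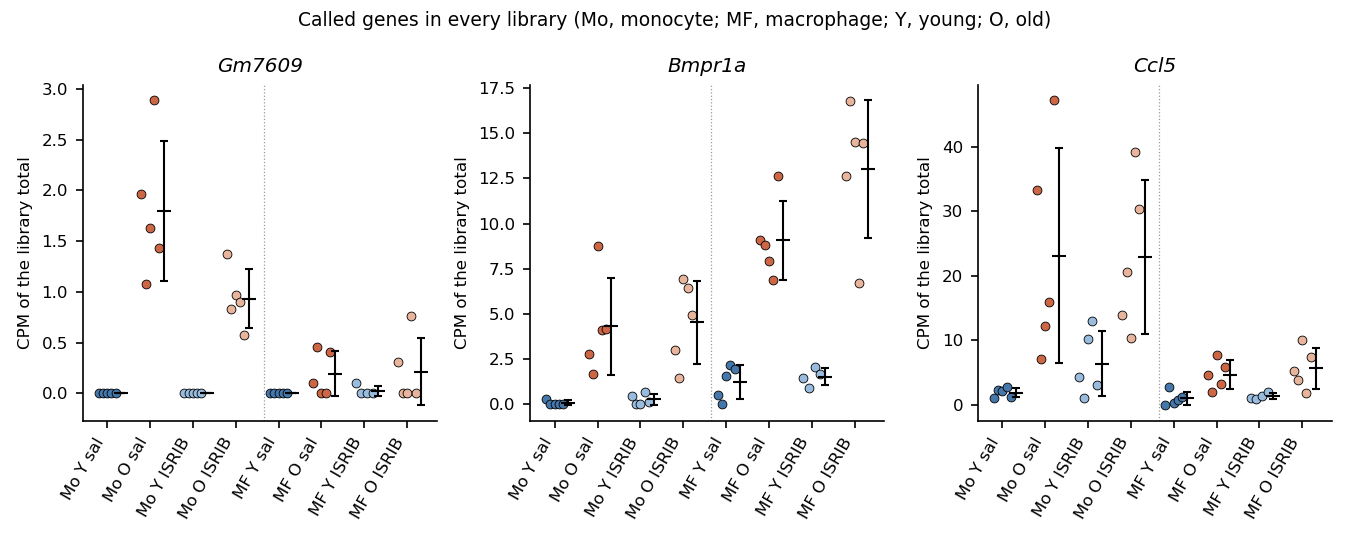
Points are all 39 libraries and bars the mean ± SD of each group, in CPM of the library total, for the 3 called genes, with monocytes left and macrophages right of the dotted line. Gm7609 and Bmpr1a sit near 0 in young monocytes of both treatments and above them in old ones, and Ccl5 in old saline monocytes runs from 7.06 to 47.3 CPM.

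Gm7609 lies among near-identical gene copies, so reads may have been split or moved between them and its identity is uncertain. Between Slc16a14 and Gm16094 on chromosome 1, which enclose it, 22 annotated genes had a count and 5 were tested. Gm15433, a processed pseudogene there, had 0 counts in the 19 young libraries and 56 counts over 13 of the 20 old ones. Gm16028, an antisense gene, likewise had 0 counts in young and 34 over 13 old libraries. Of the tested neighbours, C130026I21Rik had a log2 fold change of 0.89 (edgeR adjusted p = 0.278) and A530040E14Rik 1.09 (adjusted p = 0.343). A530032D15Rik had 0.33 (adjusted p = 0.866). Sp110, near the end of that stretch, had a log2 fold change of 0.06. Over all libraries, other genes there had more counts in young, such as Slc16a14 with 170 in young and 86 in old and Gm6264 with 12 and 4. Most of those young counts came from other groups. In saline monocytes Slc16a14 had 2 in young and 0 in old, and Gm6264 had 0 and 2.

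Leaving out 1 library moved these calls. The number of called genes was 0 without young replicate 2 or 3, and 1 without old replicate 1 or 3. It was 2 without old replicate 4 or 5, 3 without old replicate 2, 4 without young replicate 1 and 5 without young replicate 5. Ccl5 lost its call without young replicate 1, 2 or 3 or old replicate 1 or 5, Bmpr1a without young 2 or 3 or old 3, and Gm7609 without young 2 or 3 or old 1, 3 or 4. With 1 library left out, the adjusted p of these genes stayed at or below 0.0786 in edgeR.

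Without young replicate 4, the library with few detected genes, 8 of 12365 genes were called (0.0647%), 6 higher (0.0485%) and 2 lower (0.0162%) in old. Those higher were the 3 genes above with H2-DMb1, Aif1 and Gpr183, and Bcr was among those lower. These further genes were named after their values were seen.

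H2-DMb1 encodes a chain of H2-DM, the chaperone that loads peptide onto class II molecules. It was at 69.1, 63.4, 89.8, 116 and 52.4 CPM in young replicates 1 to 5 and at 117, 128, 160, 155 and 123 CPM in old replicates. The groups did not overlap, and the young library closest to the old ones was replicate 4. Its log2 fold change was 0.81 ± 0.17 with all libraries (SE, edgeR adjusted p = 0.107) and 0.99 without young replicate 4 (adjusted p = 0.0123).

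Bcr, a GTPase regulator, was at 121, 97.0, 105, 61.1 and 78.8 CPM in young and 59.5 to 68.3 CPM in old. Aif1, a calcium-binding protein of myeloid cells, was at 29.2, 25.5, 36.8, 66.4 and 15.4 CPM in young and 44.7 to 62.5 CPM in old. Gpr183, an oxysterol receptor that guides immune cell migration, was at 17.1 to 42.2 CPM in young and 35.3 to 58.8 CPM in old. For Bcr and Gpr183 young replicate 4 lay within the old range, and for Aif1 it lay above it. The other 4 young libraries did not overlap with old for any of the 3 genes.

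Genes of MHC class II had fold changes towards old monocytes, but none of the 15 genes on the list passed the adjusted threshold with all libraries. At an unadjusted p under 0.05, 9 of 15 were higher and 0 lower, against 5.05% and 3.76% of all genes. The median log2 fold change of the list was 0.81, against 0.01 over all genes tested. Of its 15 members 13 were above 0, against 50.9% of all genes. The list was assembled with earlier results of these data known. Without young replicate 4 the median was 0.99, and over the single libraries left out it ran from 0.65 to 0.99 with 6 to 10 members at an unadjusted p under 0.05.

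Ciita, the master transactivator of the class II genes, was at 41.9, 49.5, 62.3, 38.5 and 18.6 CPM in young replicates 1 to 5. In old replicates it was at 98.6, 85.3, 153, 160 and 85.9 CPM, so every old library lay above every young one. Its log2 fold change was 1.46 ± 0.28 (SE, n = 5 and 5), just outside the threshold in edgeR (adjusted p = 0.0665). DESeq2 gave an adjusted p of 0.000202 and the fit of all 39 libraries 0.0110. When 1 library was left out, no fit called it.

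The antigen-presenting heterodimers were more variable. H2-Aa, an alpha chain, was at 173, 352, 478, 553 and 47.9 CPM in young and 725, 402, 765, 825 and 708 CPM in old replicates. H2-Eb1, a beta chain, was at 101, 169, 233, 333 and 22.3 CPM in young and 490, 220, 424, 485 and 435 CPM in old. For both genes young replicate 5 was the lowest library and old replicate 2 the only old library within the young range. Their log2 fold changes were 1.10 ± 0.39 for H2-Aa and 1.26 ± 0.40 for H2-Eb1, with adjusted p of 0.381 and 0.290 in edgeR.

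Cd74, the invariant chain that escorts class II molecules, was at 760, 1361, 1837, 2644 and 319 CPM in young and 2334, 1488, 2568, 2607 and 2222 CPM in old replicates, with the highest value of all in young replicate 4. Its log2 fold change was 0.70 ± 0.34 (adjusted p = 0.574 in edgeR). Ctss, the protease that trims the invariant chain, had a log2 fold change of 0.08, and the subunits of the RFX complex, which recruits Ciita to DNA, lay at -0.07 for Rfx5, -0.15 for Rfxap and 0.26 for Rfxank. The summed level of 20 markers of dendritic cells, which carry much class II, was 510 to 983 CPM of the library total in young. In old it was 595 to 783 CPM, so the groups overlapped. The young maximum was replicate 4, with a count for 14 of 20 members. The list shares H2-DMb2 with the class II list, and its sum does not measure the share of dendritic cells. Markers of B cells, which also carry class II and Ciita, moved in the same direction as the class II list (median 0.92). Of 18 tested, 15 were above 0 and 9 higher at an unadjusted p under 0.05, against 50.9% and 5.05% of all genes. Their summed level was 338, 265, 344, 416 and 303 CPM of the library total in young and 446, 340, 284, 248 and 429 CPM in old replicates 1 to 5, which overlapped. The lowest of these, old replicate 4, had the highest Ciita. The sum does not measure the share of B cells. Its members Cd79a and Igkc reached at most 4.65 and 36.7 CPM, so other members made up most of it. Young replicate 4 had the highest young sum with a count for 13 of 20 members. The part of B cells in the class II values was not tested further.

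**Figure D3:**
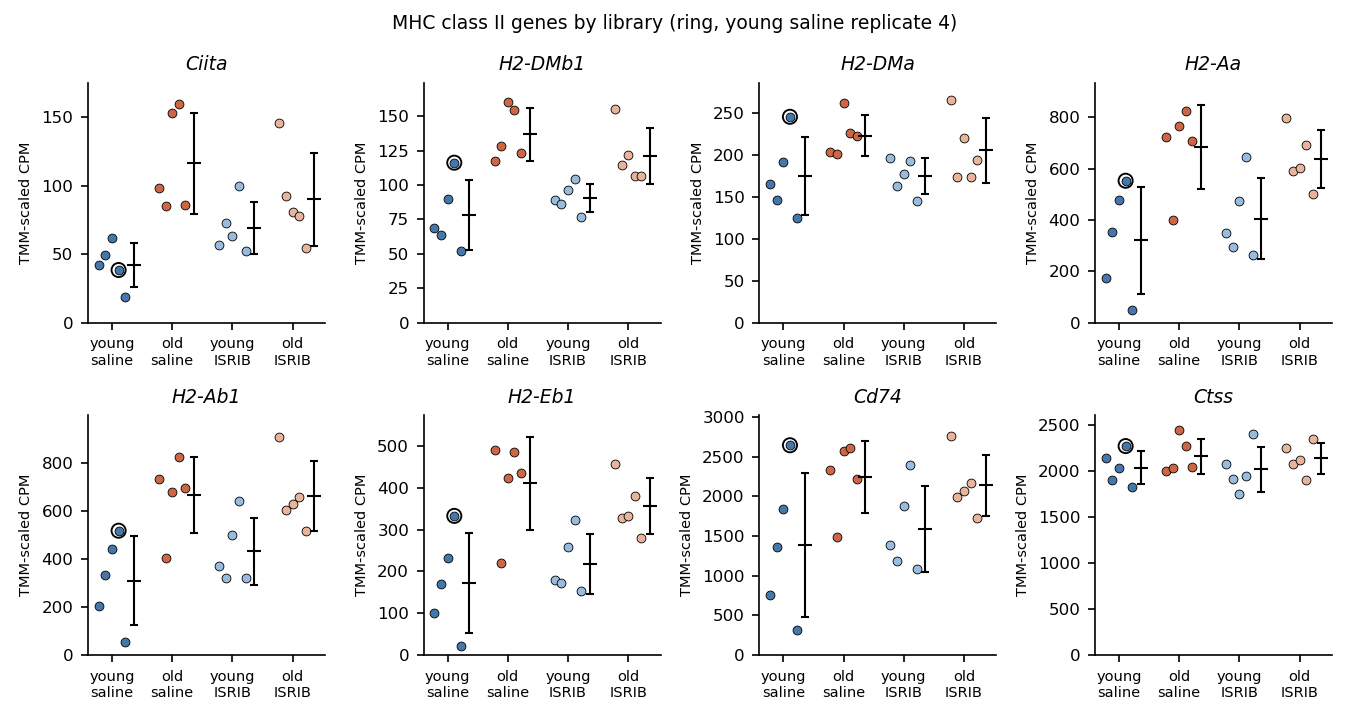
Points are libraries of the 4 naive monocyte groups, in TMM-scaled CPM, with bars for the mean ± SD (n = 5) and a ring around young saline replicate 4. In saline libraries Ciita and H2-DMb1 do not overlap between the ages, whereas H2-Aa, H2-Ab1, H2-Eb1 and Cd74 overlap.

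Promoters of class II genes share the X box, bound by the RFX complex, and the Y box, bound by NF-Y, and Ciita acts through the factors on them. The 250 bases before the RefSeq start of H2-DMb1 (chr17:34152941-34153190) and of H2-Eb1 (chr17:34305617-34305866) are shown because these genes are a chaperone and an antigen-presenting chain of the list (GRCm38.p6, plus strand). Capitals mark AACNGATG, from the X box, and GATTGG, from the Y box, searched on both strands. The motif letters were chosen with these promoters in view.
H2-DMb1: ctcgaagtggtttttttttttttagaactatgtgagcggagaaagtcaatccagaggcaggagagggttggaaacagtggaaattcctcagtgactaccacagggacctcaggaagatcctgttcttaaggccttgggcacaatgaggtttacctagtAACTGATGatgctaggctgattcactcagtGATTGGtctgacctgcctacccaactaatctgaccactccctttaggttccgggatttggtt
H2-Eb1: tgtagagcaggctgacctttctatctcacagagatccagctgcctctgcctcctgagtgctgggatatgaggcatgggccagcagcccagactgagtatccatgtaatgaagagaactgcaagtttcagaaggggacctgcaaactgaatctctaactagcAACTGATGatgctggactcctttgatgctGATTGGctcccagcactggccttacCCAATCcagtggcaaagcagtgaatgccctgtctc
AACNGATG begins 92 bases before the start in H2-DMb1 and 89 in H2-Eb1, and GATTGG follows it in both. Of 11 list genes with a promoter in the RefSeq table, 4 held both motifs (H2-Eb1, H2-Eb2, H2-DMb1 and H2-DMb2), as did 0.25% of 32851 promoters. AACNGATG was in 1.98% and GATTGG in 14.6% of those promoters, counting those with both. A match describes the letters of the window and is not a measurement of binding. Of these 4 genes, H2-Eb2 was near 0 in every group (mean 0.618 ± 0.597 CPM in young and 0.819 ± 0.346 CPM in old, SD, n = 5).

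In monocytes of ISRIB-treated mice, which share no library with the saline comparison, no gene passed the threshold with age. The smallest adjusted p in edgeR was 0.0672, shared by Bmpr1a, Gm7609 and Rbm3, a cold-inducible RNA-binding protein. Without adjustment, 500 genes (4.11%) were higher and 303 (2.49%) lower at p under 0.05. DESeq2 called 22 genes and limma voom 1, and edgeR called 7 when the first old ISRIB library was left out and 17 when the second was. The difference between the saline and ISRIB age effects, tested directly, also called 0 genes (smallest adjusted p = 0.478, 865 genes at an unadjusted p under 0.05, 0 in DESeq2 and 0 in limma voom).

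The members' ISRIB values set beside the saline ones differed in size. Ccl5 was at 4.38, 1.10, 9.99, 12.6 and 3.14 CPM in young and 13.8, 20.2, 10.5, 39.9 and 32.7 CPM in old ISRIB libraries, which overlapped. Its log2 fold change there was 1.89 (edgeR adjusted p = 0.334), against 3.59 in saline. Ciita was at 57.1, 72.9, 63.2, 100 and 52.2 CPM in young and 146, 92.5, 80.9, 77.7 and 54.6 CPM in old ISRIB libraries, with a log2 fold change of 0.39. The class II list had a median of 0.42 in ISRIB, with 13 of 15 members above 0, against 48.7% of all genes. At an unadjusted p under 0.05, 1 of the 15 was higher and 0 lower, against 4.11% and 2.49% of all genes. Neither Ccl5, Ciita nor any other member of that list had a called difference between the treatments.

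A small set of genes separated the ages in both treatments. In saline, 131 genes lay wholly above (1.08%) and 51 wholly below (0.419%) the young libraries. In ISRIB these shares were 0.904% and 0.592%. In both saline and ISRIB, 7 genes were wholly above (0.0575%): Gm7609, Bmpr1a, H2-DMb1, Kcnc1, Adam19, Eogt and Snora57. The 3 genes wholly below (0.0247%) were Ccl3, Stat6 and Trmt10b. Stat6, the transcription factor of interleukin 4 signalling, was at 427 to 499 CPM in young and 344 to 403 CPM in old saline libraries. Across the 9179 genes whose mean reached 5 CPM, the saline and ISRIB fold changes had a Pearson r of 0.177. This is a description over genes fitted together, which are not independent replicates.

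The age effect was also averaged over both treatments, which reuses the saline libraries and was added after seeing the data. This called 15 genes (0.123%), 12 higher (0.0986%) and 3 lower (0.0247%) in old. The 3 saline genes were among them, with H2-DMb1, Adam19, Rbm3, Rnf157, Mmp25, C130026I21Rik, A530040E14Rik and the lymphoid genes Jchain and Klrc1. Those lower were Ccl3, a chemokine for monocytes and T cells, Tnfsf12, a cytokine of the TNF family, and Arap3, a GTPase regulator.

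Ccl3 was at 51.8, 56.2, 53.4, 70.1 and 73.5 CPM in young and 31.6, 41.2, 21.9, 39.4 and 37.2 CPM in old saline replicates. In ISRIB libraries it was at 39.3 to 46.4 CPM in young and 11.5 to 35.6 CPM in old, so the ages did not overlap under either treatment. The averaged log2 fold change was -0.91 ± 0.15 (SE, edgeR adjusted p = 0.00923). Adam19, a membrane metalloprotease, was at 47.9 to 63.5 CPM in young and 69.2 to 138 CPM in old saline libraries, with an averaged log2 fold change of 0.77 ± 0.14 (edgeR adjusted p = 0.0193). Jchain, the joining chain of secreted immunoglobulin, had 3 counts in young saline libraries and 123 in old, most in old replicate 1 (7.37 CPM) and replicate 5 (4.54 CPM). Igha, the immunoglobulin A heavy chain, was not called (edgeR adjusted p = 0.343) and had 462 counts in old replicate 1, 187 in old replicate 5, 4 in old replicate 3 and 0 in every other saline library.

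Of these 15 genes, Bmpr1a, Gm7609, Ccl5, Ccl3, Adam19 and C130026I21Rik were called in all 20 fits that left out 1 library. H2-DMb1 was called in 9, Jchain in 9, Klrc1 in 4 and Mmp25 in 3 of the 20. Among saline libraries, the count of 15 became 25 with young replicate 4 left out, 9 with young replicate 2 left out and 6 with old replicate 1 left out. Among ISRIB libraries it became 9 with young replicate 1, 7 with young replicate 2 and 9 with old replicate 2 left out.

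The age effect in saline monocytes differed from that in saline macrophages for 34 of 13587 genes (0.25%), with the macrophage effect above the monocyte effect for 20 (0.147%) and below it for 14 (0.103%). All macrophages came from bleomycin-treated mice and all monocytes from naive ones, so cell type and injury cannot be told apart. Among the 10 genes with the lowest adjusted p, 8 had a higher effect in macrophages: Col4a2 and Col4a1, chains of basement membrane collagen, the chemokines Ccl3 and Cxcl2, Nfkbia, an inhibitor of NF-kB, the transporter Abcc5, Ighm and Stom. The other 2, Ccr2 and Olfm1, had a higher effect in monocytes.

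Ccl3 had a log2 fold change of -0.83 in monocytes and 1.27 in macrophages, a difference of 2.11 ± 0.37 (SE, edgeR adjusted p = 0.00740). Cxcl2, a chemokine for neutrophils, was at 134 to 294 CPM in young and 79.4 to 231 CPM in old saline monocytes, and its difference was 2.54 ± 0.51 (adjusted p = 0.0203). Col4a2, at 1.24 to 5.41 CPM in young and 0.346 to 1.79 CPM in old monocytes, differed by 3.95 ± 0.58 (adjusted p = 0.000458). Ccr2 was at 2530, 1293, 1409, 1057 and 2608 CPM in young and 2321, 3908, 2614, 2667 and 2109 CPM in old monocytes, which overlapped, and differed by -2.04 ± 0.40 (adjusted p = 0.0152). For Ighm the monocyte fold change was -0.16, the macrophage fold change 3.50 and the difference 3.68 ± 0.67 (adjusted p = 0.00955). Ighm is on the B cell marker list, whose median log2 fold change was 0.92 in saline monocytes and 2.32 in saline macrophages. The part of B cells in the Ighm difference was not tested.

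Ciita and H2-DMb1, the latter named after its values were seen, were also among the 34. Ciita had a log2 fold change of 1.46 in monocytes and -0.25 in macrophages, a difference of -1.69 ± 0.37 (edgeR adjusted p = 0.0336). H2-DMb1 had a difference of -0.93 ± 0.21 (adjusted p = 0.0368). The class II list had a median of -0.11 in macrophages. Ciita was called in 14 and H2-DMb1 in 11 of 20 fits that left out 1 library, and both calls were lost without old saline monocyte replicate 3 or 4, young saline macrophage replicate 1 or 3 or old saline macrophage replicate 3 or 5. H2-DMb1 was also lost without young saline monocyte replicate 1 or 2 or young saline macrophage replicate 2.

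The count of 34 moved with single libraries of both cell types. Among macrophage libraries it was 8 without old replicate 5, 14 without young replicate 1, 18 without young replicate 2, 18 without old replicate 3 and 62 without old replicate 2. Among monocyte libraries it was 21 without young replicate 2, 56 without young replicate 4, 71 without young replicate 5 and 53 without old replicate 5. Ccl3, Ccr2, Col4a1, Col4a2, Ighm, Nfkbia and Abcc5 were called in all 20 of these fits, and Cxcl2, Stom and Olfm1 in 19, the exception being old macrophage replicate 5.

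Chemokine and inflammatory genes had fold changes in both directions in saline monocytes. Of 35 tested genes on the list of inflammatory cytokines, chemokines and NF-kB feedback, Ccl5 was called higher. At an unadjusted p under 0.05, 3 were higher and 6 lower, against 5.05% and 3.76% of all genes. The median was -0.12. The number lower was 3 without old replicate 3 and 9 without old replicate 4, and over the single libraries left out the median ran from -0.23 to -0.08. Those lower included Ccl3, Ccl4, Cxcl2, Nfkbia and Il6, the last at 14 ± 9.72 CPM in young and 5.16 ± 3.84 CPM in old (SD, n = 5). Il1b ranged from 215 to 773 CPM in young and from 141 to 1003 CPM in old, a wide spread in both groups. In ISRIB libraries the list had a median of 0.36. There 12 were higher and 1 lower at an unadjusted p under 0.05, against 4.11% and 2.49% of all genes.

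Receptors for chemokines and other attractants had a median log2 fold change of 0.60 over 27 tested genes, with 8 higher and 1 lower at an unadjusted p under 0.05, against 5.05% and 3.76% of all genes. The number higher ran from 5 without old replicate 2 to 11 without young replicate 5, and the median was 0.37 without young replicate 2. They included Gpr183, Cmklr1 (42.0 ± 9.81 CPM in young and 79.6 ± 35.6 CPM in old, SD, n = 5) and Fpr2, a formyl peptide receptor (36.1 ± 14.1 and 54.4 ± 10.8 CPM). Cxcr3 and Cxcr6, which T and NK cells also express, were at 1.25 and 1.19 CPM in young and 3.68 and 3.36 CPM in old. None was called with all libraries. In ISRIB libraries the median of the list was 0.06. The list members named here and in the next paragraphs were chosen by their p after their values were seen.

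Most type I interferon-stimulated genes had fold changes below 0, with a median of -0.20 over 47 genes. Of the 47, 1 was above 0, against 50.9% of all genes. None was called, and 8 were lower and 0 higher at an unadjusted p under 0.05, against 3.76% and 5.05% of all genes. Rsad2, an antiviral enzyme, was at 105 ± 57.1 CPM in young and 47.0 ± 19.2 CPM in old (SD, n = 5). Isg15 was at 14.2 to 35.9 CPM in young and 16.3 to 25.2 CPM in old, and Ifitm3 at 1014 to 1965 CPM and 1104 to 1190 CPM. The number lower ran from 2 without old replicate 3 to 12 without young replicate 5 or old replicate 1. The median was -0.23 without young replicate 4 and -0.20 in ISRIB libraries.

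Cytosolic heat shock proteins, which fold other proteins, had a median of -0.31 over 21 genes. Of these, 7 were lower and 0 higher at an unadjusted p under 0.05, against 3.76% and 5.05% of all genes. Hsp90ab1 was at 1312, 1762, 1397, 1277 and 1160 CPM in young and 913, 750, 1172, 1227 and 783 CPM in old replicates, which overlapped (log2 fold change -0.51 ± 0.14, edgeR adjusted p = 0.244). Hspa8 was at 1387 ± 137 CPM in young and 1024 ± 229 CPM in old (SD, n = 5). Both were among the 34 genes whose age effect differed from that of macrophages, where their log2 fold changes were 0.24 and 0.37. Those calls held in 7 and 9 of 20 fits that left out 1 library. The number lower ran from 3 to 11 over the single libraries left out, with 3 without young replicate 2 and 11 without old replicate 4. It was 1 without old replicates 1 and 5.

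Targets of the integrated stress response, the pathway that ISRIB blocks, had a median of -0.06 over 31 genes. At an unadjusted p under 0.05, 1 was higher and 0 lower, against 5.05% and 3.76% of all genes. Atf4, the central transcription factor of that response, was at 161 to 308 CPM in young and 149 to 212 CPM in old. Ddit3, a target of Atf4, was at 7.60 to 10.4 CPM in young and 6.88 to 12.4 CPM in old. Atf6, a sensor of unfolded protein in the endoplasmic reticulum, was at 164 to 234 CPM in young and 262 to 298 CPM in old, without overlap (log2 fold change 0.45 ± 0.10, edgeR adjusted p = 0.154). Its effect differed from that in macrophages (adjusted p = 0.0368), a call that held in 10 of 20 fits with 1 library left out.

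Of the cell cycle inhibitors that mark senescent cells, Cdkn1a was not called, at 209 to 474 CPM in young and 143 to 337 CPM in old saline libraries. Cdkn2a was at 0 in 9 of the 10 libraries, fell below the filter on low counts and was not tested. Immediate early genes, whose transcripts build up within minutes of stimulation or cell handling, had a median of -0.22 over 29 tested genes. At an unadjusted p under 0.05, 0 were higher and 0 lower, against 5.05% and 3.76% of all genes. In ISRIB libraries their median was 0.36, with 10 higher and 1 lower, against 4.11% and 2.49% of all genes. Ribosomal protein genes had a median of -0.17 with 1 of 80 above 0, against 50.9% of all genes. Without young replicate 4 that median was 0.04, so its sign rested on that library. In ISRIB libraries it was 0.23. There 79 of 80 were above 0 and 13 higher at an unadjusted p under 0.05, against 48.7% and 4.11% of all genes.

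**Figure D4:**
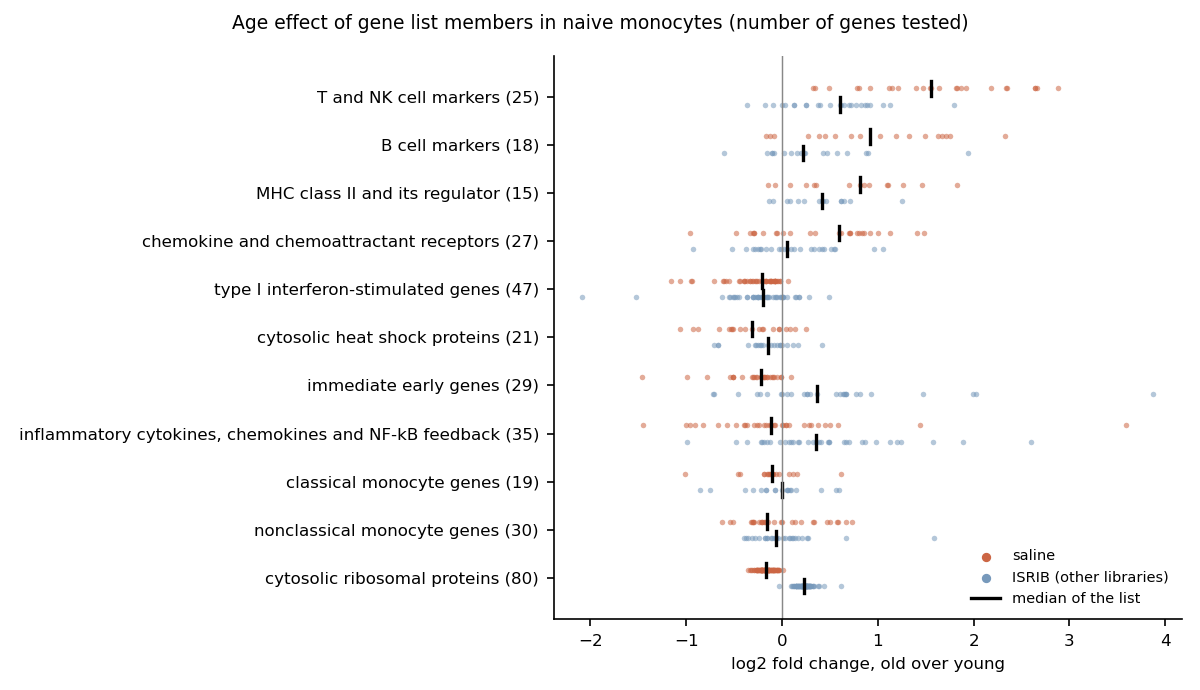
Points are tested genes of 11 lists, with the log2 fold change of old over young in saline and, from other libraries, in ISRIB-treated monocytes, and bars mark list medians. In saline the T and NK cell markers (median 1.55), B cell markers (0.92) and class II genes (0.81) lie furthest above 0.

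Levels of monocyte subset genes varied between libraries of the same age. Ace, a nonclassical gene, was at 1026, 1145, 1079, 531 and 156 CPM in young and 757, 273, 518, 374 and 774 CPM in old replicates. Young replicate 5 and old replicate 2 had the lowest Ace of their age. They were also the lowest of their age for H2-Aa and Cd74. Young replicate 4 and old replicate 4, the next lowest for Ace, had the highest H2-Aa and Cd74 of their age. Subset shares were not measured, and their part in the class II values was not tested.

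No gene of either subset was called. The 19 classical genes tested had a median of -0.11 and the 30 nonclassical genes -0.15. The nonclassical median ran from -0.32 without young replicate 5 to 0.03 without young replicate 2, so its sign rested on single libraries. Ly6c2 was at 480 to 644 CPM in young and 418 to 672 CPM in old, Cx3cr1 at 269 to 763 CPM and 325 to 627 CPM, and Nr4a1 at 1359 to 3378 CPM and 936 to 2679 CPM. Treml4 was at 35.4 to 184 CPM in young and 58.1 to 181 CPM in old, and Spn at 109 to 399 CPM and 127 to 427 CPM. Chil3, a chitinase-like protein of classical monocytes and alveolar macrophages, was at 1993, 1429, 855, 1469 and 1706 CPM in young and 589, 618, 1278, 613 and 604 CPM in old. Old replicate 3 lay among the young libraries, and the log2 fold change was -1.01 ± 0.28 (edgeR adjusted p = 0.232).

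Markers of lymphocytes were low, with fold changes towards old monocytes. Of 25 T and NK cell markers tested, all 25 had a log2 fold change above 0, against 50.9% of all genes. Their median was 1.55, and 14 were higher and 0 lower at an unadjusted p under 0.05, against 5.05% and 3.76%. Zap70, a T cell kinase, was at 0.861 ± 0.733 CPM in young and 4.76 ± 2.31 CPM in old (SD, n = 5). Without old replicates 1 and 5, 3 of the list were at an unadjusted p under 0.05 and the median was 0.67. For B cell markers the 9 genes higher became 5 without old replicate 1, with a median of 0.67, and 4 higher and 1 lower without old replicates 1 and 5. Igkc was at 0.124 to 7.62 CPM in young and 3.41 to 36.7 CPM in old.

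For each of the 12 marker lists of other cells the summed level overlapped between the ages. A sum can rest on few members, so this overlap does not measure the share of those cells. Mature alveolar and resident macrophage markers summed to 1152 to 2062 CPM of the library total in young and 818 to 1576 CPM in old, most of it Chil3. Single members of that list went the other way from the sum. Of 13 tested, 11 had a fold change above 0, against 50.9% of all genes, with a median of 0.48. At an unadjusted p under 0.05, 3 were higher and 1 lower, against 5.05% and 3.76% of all genes. The complement genes C1qb and C1qc were at 5.71 ± 4.16 and 0.884 ± 1.35 CPM in young and 18.7 ± 14.1 and 5.83 ± 5.80 CPM in old (SD, n = 5). Neither was called with age in saline monocytes. C1qc was among the 34 genes whose age effect differed from that of macrophages, a call that held in 9 of 20 fits with 1 library left out. Gpnmb was at 0 to 3.05 CPM in young and 1.84 to 7.48 CPM in old, and the profibrotic macrophage gene Spp1 was at most 3.41 CPM in any saline library.

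**Figure D5:**
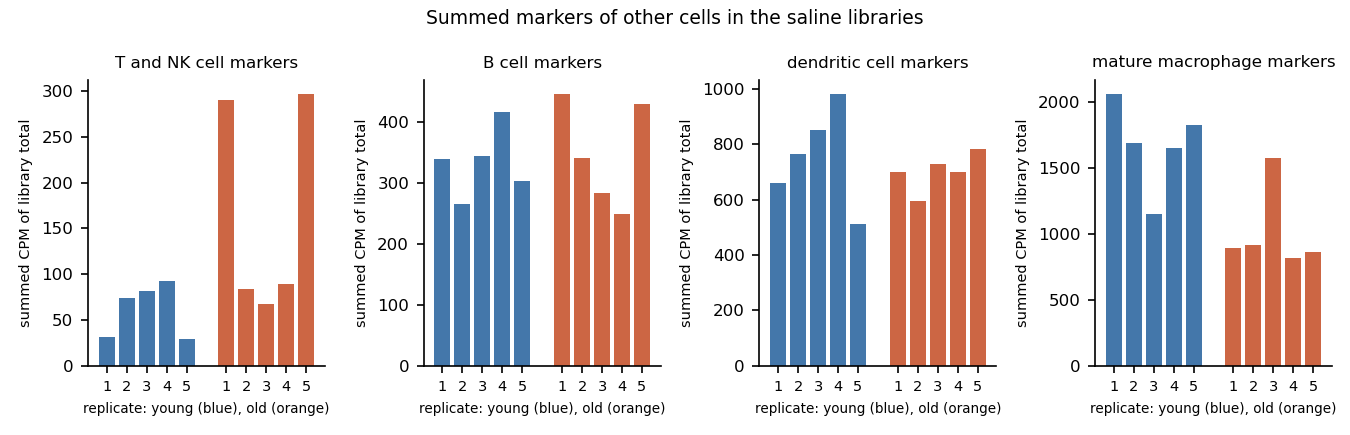
Bars are the 10 saline libraries, with the summed markers of 4 other cell types in CPM of the library total. T and NK cell markers stand at 290 and 297 CPM in old replicates 1 and 5 and at or below 92.9 CPM in the rest.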

How the data were processed

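Lung monocytes were sorted, and libraries were made from 3 ng of total RNA by poly(A) selection, per the labels' protocols. The deposited values are raw counts per gene for 43430 Ensembl IDs, unnormalized. The submitters' processing notes name bcl2fastq 2.19.1, FastQC, Trimmomatic 0.36, STAR 2.6.0, HTSeq 0.11.2 and mm10. For the annotation and the strand setting, not given in the sources used here, nothing was assumed, so overlapping and antisense genes may share reads. Symbols were found for 98.0% of IDs.

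Counts were tested with edgeR 4.0.16 (R 4.3.3; TMM, quasi-likelihood) in 1 fit of the 20 monocyte libraries, or all 39 libraries for the comparison with macrophages. Genes passed filterByExpr (minimum count 10, minimum total 15), p-values were Benjamini-Hochberg adjusted over all genes tested, and genes under 0.05 were called. Fits were checked on simulated data for the saline comparison. There edgeR recovered 25.3% of genes changed 1.5-fold, 54.7% changed 2-fold, 80% changed 4-fold and 94% changed 8-fold. Of the genes called in the simulation, 4.51% were false. Alternatives used DESeq2 1.42.0, limma 3.58.1, other filters, offsets and samples. Named genes were those called, without overlap and at 5 CPM or more, list members called, up to 10 genes called in a test of a difference, and a list of markers. The members and lists were chosen with earlier results of these data known. Results for some genes are not reported here.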

Additional observations from a re-analysis of the deposited data

Results flagged for a closer look

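Single libraries stood apart from the other 4 of their group in 11 of 122 sets of values checked. Chance gives about 1 in 20 for independent, normally spread values, but these sets share libraries and some were picked by their values. Young saline replicate 4 had 12324 genes with a count, against 15196 to 15773 in the other young libraries. Its summed alveolar and airway epithelium markers were 637 CPM of the library total, against 455 to 506 CPM.

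Bmpr1a was at 0.317 CPM in young replicate 1 and 0 in the other young libraries. Jchain was at 0.345 CPM in young replicate 3 and 0 in the others. Where the others are all at 0, any count is flagged. C130026I21Rik was at 3.48 CPM in young replicate 1, against 2.35 to 2.67 CPM.

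Among old libraries, replicate 3 had 1576 CPM of mature alveolar and resident macrophage markers against 818 to 916 CPM, with Chil3 at 1278 CPM against 589 to 618 CPM. Old replicate 2 was low for H2-Aa (402 CPM against 708 to 825 CPM) and high for Rnf157 (13.6 CPM against 6.73 to 8.43 CPM). Old replicate 5 was high for Adam19 (138 CPM against 69.2 to 85.8 CPM) and for the NK cell receptor gene Klrc1 (8.93 CPM against 0 to 1.45 CPM).

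The age effect differed between saline macrophages and saline monocytes, by a test of the difference itself. On the log2 scale the macrophage effect minus the monocyte effect was 3.95 for Col4a2, 2.11 for Ccl3, 1.01 for Abcc5, 3.68 for Ighm, 2.50 for Col4a1 and 1.31 for Nfkbia. It was 0.69 for Stom, 2.54 for Cxcl2, -2.04 for Ccr2, -1.26 for Olfm1, -1.69 for Ciita and -0.93 for H2-DMb1.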

How the results depend on the processing

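The 3 genes called with age in saline monocytes were also 3 in number with DESeq2's size factors and when a fold over 1.5 was tested. The count was 15 with no filter on low counts, 46 with DESeq2, 34 with all 39 libraries fitted, 7 with GC content and length offsets and 6 with voom quality weights. It was 1 with limma voom and 0 with the 10 libraries alone, counts thinned to the smallest total, a stricter filter, old libraries 1 and 5 left out or young libraries 1 and 4 left out. With young library 4 and old libraries 1 and 5 left out it was 2. With the replicate number as a block 7 genes were called, of which Bmpr1a and Ccl5 were among the 3. Same-numbered libraries correlated at -0.325 to -0.046 and 0 of 5 matched best with their own number, so the samples share only a number. For ISRIB the count of 0 became 41 with no filter, 22 with DESeq2, 1 with limma voom and 1 with the 10 libraries alone. The saline against ISRIB difference gave 12 with no filter. The macrophage against monocyte difference gave 76 with no filter, 141 with DESeq2 and 22 with limma voom, and the averaged age effect 40 with no filter and 83 with DESeq2. Leaving out 1 library gave 0 to 8 calls in saline, 0 to 17 in ISRIB, 6 to 25 for the averaged effect, 0 to 0 for the saline against ISRIB difference and 8 to 71 for the macrophage difference. The cause of these shifts was not tested beyond the change in genes or libraries fitted.

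Genes whose fold change turned sign were all uncalled with small effects. With single libraries left out, the fold changes ran from -0.12 to 0.00099 for Csf1r, -0.13 to 0.042 for Ptprc, -0.48 to 0.055 for Treml4 and -0.077 to 0.15 for Ddit3. They ran from -0.21 to 0.57 for Il1b, -0.095 to 0.17 for Itgam and -0.0006007 to 0.56 for Spp1. Without young libraries 1 and 4, Atf4 was 0.063, Ddit3 -0.0043, Itgam -0.023, Siglecf -0.22 and Spp1 -0.11. Under the replicate block Il1b was -0.12. With voom quality weights Spp1 was -0.10. Of the other gene values under the alternatives, 1071 kept direction and side of the threshold, 39 passed it newly and 32 no longer passed it. Bmpr1a and Gm7609 rest on few counts, and intervals cover counting error only.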

Other observations

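The 17 circadian clock genes tested had a median log2 fold change of -0.02 in saline monocytes, with 8 above 0, against 50.9% of all genes. At an unadjusted p under 0.05, 2 were higher and 0 lower, against 5.05% and 3.76% of all genes. Among them Per2, a core repressor of the clock, was at 1.86 ± 1.16 CPM in young and 5.11 ± 0.858 CPM in old saline monocytes (SD, n = 5), without overlap and with a log2 fold change of 1.43 (edgeR adjusted p = 0.232). Klf9, a transcription factor induced by glucocorticoids, was at 99.3 ± 31.8 CPM in young and 41.9 ± 20.6 CPM in old, with overlap and a log2 fold change of -1.24 (edgeR adjusted p = 0.154). Rnf157, a ubiquitin ligase, had a log2 fold change of 1.40 in saline (edgeR adjusted p = 0.0963). These genes were chosen after their values were seen, and the time of day of collection was not used here.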
